A study of Sus scrofa with 5 samples.

Results

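Transcripts of 10 prostaglandin and leukotriene pathway genes were followed in single nuclei of the pig abdominal aorta. The genes were PTGS1, PTGS2, PTGES, PTGIS, TBXAS1, HPGD, PTGFR, PTGER4, ALOX5 and ALOX5AP. They were taken from a list of symbols, and all 10 were found among the 35670 features of the count tables. Nuclei came from castrated male Ossabaw pigs, a breed prone to obesity, which were assigned to their diet at 12 months of age. In the obese group, 3 pigs ate the HF/HFru diet. In the control group, 2 pigs ate chow. The time on diet is described once as 6 and once as 9 months. About 50 mm of frozen vessel was taken from each pig, nuclei were sorted on the DNA dye DRAQ5, and 1 library was made per pig.

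Eicosanoids are lipid signals made from arachidonic acid. Cyclooxygenases convert the acid to the common precursor of the prostaglandins, and terminal synthases then decide the product: prostacyclin, which relaxes vessels and restrains platelets, thromboxane, which does the reverse, or prostaglandin E2. A separate branch through 5-lipoxygenase gives the leukotrienes, which are made mainly by myeloid cells. In the arterial wall, prostacyclin is the main product of endothelium and smooth muscle, and macrophages are a source of thromboxane and leukotrienes.

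The libraries held 21516249 to 47724416 UMIs (unique molecular identifiers, 1 per captured transcript), and 41986 nuclei were kept. Between any 2 libraries, 10 to 29 cell barcodes were shared. Clusters were named from marker genes, and each name means only that those markers were high. Smooth muscle-like nuclei numbered 23690, fibroblast-like 2725, endothelial-like 1133 and macrophage-like 2024. The labelled tissue was met by this make-up, apart from 795 nuclei with kidney tubule markers. Unnamed clusters held 23.4%, 43.5% and 33.7% of the nuclei of obese pigs 1, 2 and 3, against 5.83% and 13.2% in control pigs 1 and 2. In endothelial-like nuclei the median depth was 1490, 1685 and 1633 UMIs in the obese pigs, against 5066 and 5548 in the control pigs. Macrophage-like nuclei numbered 409, 1384 and 140 in the obese pigs, against 55 and 36 in the control pigs. Counts were summed per pig and class, and levels are given as counts per 1000000 UMIs of that class in that pig (CPM). Differences were tested with edgeR's quasi-likelihood test with Benjamini-Hochberg adjustment over every gene tested in the class, and called at an adjusted p under 0.05. The p-values measure the spread between 5 pigs, and an exact permutation test of a single value could not go below 0.2. Since the classes were drawn from the same nuclei, levels are described between classes and not tested. Levels are compared for 1 gene at a time, and not between genes.

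The promoters of PTGS2 and PTGIS are shown because these genes moved in opposite directions in the results that follow. PTGS2, the inducible cyclooxygenase, lies on the minus strand at chr9:127850164-127858866 of Sscrofa11.1. PTGIS, prostacyclin synthase, lies on the minus strand at chr17:51153151-51200515. The sequences are the 250 bases before the RefSeq gene start, at chr9:127858867-127859116 and chr17:51200516-51200765, read on the gene's strand from 5′ to 3′. Capitals mark matches to the motifs searched.
PTGS2: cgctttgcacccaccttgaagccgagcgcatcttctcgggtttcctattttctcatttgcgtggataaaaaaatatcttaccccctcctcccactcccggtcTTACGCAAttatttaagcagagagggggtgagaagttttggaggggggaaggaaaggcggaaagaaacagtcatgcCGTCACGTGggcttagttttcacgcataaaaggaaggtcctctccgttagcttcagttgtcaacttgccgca
PTGIS: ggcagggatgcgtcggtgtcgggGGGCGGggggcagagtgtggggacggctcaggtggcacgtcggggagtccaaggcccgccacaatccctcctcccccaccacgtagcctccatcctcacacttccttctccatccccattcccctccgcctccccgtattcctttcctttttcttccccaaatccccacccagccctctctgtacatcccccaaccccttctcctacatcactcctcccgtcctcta

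In the PTGS2 promoter, a match to the C/EBP-type site TTGCNNAA lay at -148 to -141 from the gene start. A match to the cyclic AMP response core TGACG lay at -72 to -68 and overlapped the E-box CACGTG at -69 to -64. Both strands were searched. Of 19531 RefSeq promoters of the same length, 8.2% held TTGCNNAA, 19.6% held TGACG and 6.39% held CACGTG. Neither window held the TATA box TATAAA or the AP-1 site TGANTCA, which were found in 9.76% and 5.25% of promoters. The PTGIS promoter held 1 GC box, GGGCGG, at -227 to -222, as did 45.9% of promoters. These matches are letters in a window and were not measured as binding sites.

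PTGS2 transcripts were higher in obese pigs in 3 classes: endothelial-like, smooth muscle-like and fibroblast-like nuclei. Of all genes tested, 5.97%, 0.601% and 0.452% were called higher in these classes. In endothelial-like nuclei PTGS2 stood at 443, 50.2 and 718 CPM in obese pigs 1, 2 and 3, against 27.2 and 17.1 CPM in control pigs 1 and 2. The groups did not overlap, and obese pig 2 lay close to the control pigs. The log2 fold change was 4.28 ± 0.95 (SE), with an adjusted p of 0.0248 in edgeR's quasi-likelihood test. The raw counts were 229, 26 and 243 in the obese pigs, against 69 and 21 in the control pigs.

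PTGS2 was carried by few endothelial-like nuclei. At least 1 UMI was found in 24 of 195, 6 of 218 and 21 of 120 nuclei of the obese pigs, which is 12.3%, 2.75% and 17.5%. In the control pigs it was found in 18 of 405 and 8 of 195 nuclei, which is 4.44% and 4.1%. The exact 95% intervals, which cover counting error only, were 8.05 to 17.8%, 1.02 to 5.89% and 11.2 to 25.5% in the obese pigs, against 2.66 to 6.93% and 1.79 to 7.92% in the control pigs. The unthinned share in obese pig 2 therefore could not be told from that of either control pig. That comparison was not matched for depth, at a median of 1685 UMIs in obese pig 2, against 5066 and 5548 in the control pigs. With each nucleus thinned to the same number of UMIs, the shares were 9.75%, 2.39% and 12.8% in the obese pigs, against 1.82% and 1.1% in the control pigs. Obese pig 2 then lay above both control pigs, and whether it differed from them was not tested. T or NK cell-like nuclei, a class taken to lack the gene, held a PTGS2 UMI in 1.64%, 2.5% and 0.0% of obese nuclei, against 0.781% and 0.0% of control nuclei, with median depths of 1451 to 2115 UMIs in obese and 1998 to 2702.5 UMIs in control pigs. A single nucleus held up to 69, 12 and 87 PTGS2 UMIs in the obese pigs, against 12 and 10 in the control pigs.

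The endothelial-like class was made of different clusters in each group. Its largest cluster held 42, 23 and 21 nuclei of the obese pigs, against 251 and 146 of the control pigs. Its leading genes began with COL23A1, GRIP1 and MYRIP and included NOS3 (endothelial nitric oxide synthase) and BMX. For short it is called the NOS3-led cluster, although NOS3 was not its first gene. Within that cluster alone PTGS2 stood at 824, 108 and 2049 CPM in obese pigs, against 30.4 and 18.4 CPM in control pigs, a log2 fold change of 5.51 with an adjusted p of 0.0507. In the other endothelial-like clusters together it stood at 65.3, 39.0 and 70.2 CPM in obese pigs, against 6.02 and 0.0 CPM in control pigs, with a log2 fold change of 3.57 and an adjusted p of 0.199. Both parts of the class showed obese pigs above control pigs, and neither passed the test by itself.

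Smooth muscle-like nuclei held PTGS2 at a low level, with 6.88, 9.92 and 9.57 CPM in obese pigs and 1.16 and 0.576 CPM in control pigs. No obese pig overlapped a control pig. The log2 fold change was 3.23 ± 0.44 (SE), with an adjusted p of 0.0163 in edgeR's quasi-likelihood test. The class was also made up differently: cluster 2 held 26, 25 and 119 nuclei of obese pigs, against 2805 and 1243 of control pigs, and cluster 1 held 1601, 908 and 1417, against 81 and 487. In cluster 0, which held 435 nuclei or more of every pig, PTGS2 stood at 13.02, 8.50 and 13.4 CPM in obese pigs, against 2.13 and 2.26 CPM in control pigs. The groups also did not overlap in clusters 1, 6 and 8, but they overlapped in clusters 2, 3, 12 and 22. Of all gene-by-cluster values of at least 20 CPM, a level not reached by PTGS2 in cluster 0, 13.8% were higher in all obese pigs. In cluster 3, with 268 nuclei or more of every pig, PTGS2 stood at 3.57, 0.0 and 15.1 CPM in obese pigs, against 1.21 and 0.0 CPM in control pigs. In obese pig 2, 53 of the 79 PTGS2 counts of the class came from the 207 nuclei of cluster 22, which is led by HMCN2 and TNFAIP6.

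In fibroblast-like nuclei PTGS2 stood at 31.5, 44.2 and 35.0 CPM in obese pigs, against 7.34 and 5.54 CPM in control pigs. The groups did not overlap, and the log2 fold change was 2.49 ± 0.40 (SE) with an adjusted p of 0.0332 in edgeR's quasi-likelihood test. Of the larger fibroblast-like clusters, cluster 17 had 93.0, 58.9 and 43.6 CPM in obese pigs, against 42.9 and 24.98 CPM in control pigs. In cluster 17 obese pig 3 lay close to control pig 1. Cluster 10 had 11.3, 0.0 and 38.1 CPM in obese pigs, against 2.52 and 3.66 CPM in control pigs, and there the groups overlapped. The make-up of the class varied between pigs. Cluster 10 held 403, 312 and 327 nuclei of obese pigs, against 612 and 341 of control pigs. Cluster 17 held 115, 243 and 47, against 108 and 44, and the small cluster 20 held 28, 80 and 21, against 41 and 3. The 81 PTGS2 counts of obese pig 2 thus came from clusters 17 and 20.

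PTGS2 did not differ detectably in pericyte-like nuclei, with 35.0, 31.1 and 76.2 CPM in obese pigs, 25.4 and 66.1 CPM in control pigs and an adjusted p of 0.955. In macrophage-like nuclei it was below the count filter, with 23.3, 4.51 and 2.97 CPM in obese pigs and 14.4 and 60.9 CPM in control pigs. Over all kept nuclei, where a changed share of a cell type and a changed level per cell cannot be told apart, PTGS2 stood at 27.5, 17.1 and 38.6 CPM in obese pigs, against 5.46 and 3.26 CPM in control pigs. That difference, a log2 fold change of 2.65 ± 0.47 (SE), did not pass, with an adjusted p of 0.11.

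The size of the PTGS2 change was not shown to differ among the 3 classes in which it was called. The log2 difference between the endothelial-like and smooth muscle-like changes was 0.72 ± 1.09 (SE, adjusted p = 0.845), and that between endothelial-like and fibroblast-like changes was 1.35 ± 1.15 (SE, adjusted p = 0.72), in edgeR's class-by-diet interaction test, in which pig was a block. In these pairs 0.797% and 0.314% of 12419 genes were called. The calls rested on few pigs. The endothelial-like call was lost without control pig 1, control pig 2, obese pig 1 or obese pig 3, with adjusted p from 0.00508 to 0.0919 over the 5 omissions. The smooth muscle-like call was lost without either control pig or obese pig 1 (0.0153 to 0.111) and under 5 other definitions of the class (0.0512 to 0.107). The fibroblast-like call was lost without either control pig, obese pig 1 or obese pig 2 (0.0326 to 0.324).

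Immediate early genes are switched on by nuclei within minutes of a stimulus, and PTGS2 is itself often counted as one. They were called higher in the same 3 classes, and their median was also raised in other classes without calls. Of a list of 22 in the files, 12 of 20 tested rose in endothelial-like, 6 of 21 in smooth muscle-like and 8 of 20 in fibroblast-like nuclei, and none of 17 passed in macrophage-like nuclei (edgeR's quasi-likelihood test; 844 of 5590 macrophage-like genes had an unadjusted p under 0.05, and DESeq2 called 251). Over all genes tested 5.97%, 0.601%, 0.452% and 0.698% were called higher in these 4 classes. The list's median log2 fold change was 1.59 in endothelial-like, 1.65 in smooth muscle-like, 1.88 in fibroblast-like and -0.09 in macrophage-like nuclei, against -0.03, 0.01, 0.0 and 0.1 over all genes tested. It was 2.25 in kidney tubule-like, 1.4 in Schwann cell-like, 1.07 in T or NK cell-like and 0.59 in pericyte-like nuclei. In each of these classes the median over all genes tested was 0.02, and 0.0% of genes were called. FOS, a transcription factor of this group, stood at 520.0, 571 and 836 CPM in endothelial-like nuclei of obese pigs, against 98.5 and 121 CPM in those of control pigs. In smooth muscle-like nuclei NR4A3, an orphan nuclear receptor, stood at 476, 530 and 346 CPM in obese pigs, against 96.5 and 124 CPM in control pigs. The part of these genes and of depth in the PTGS2 difference was not tested.

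**Figure D1:**
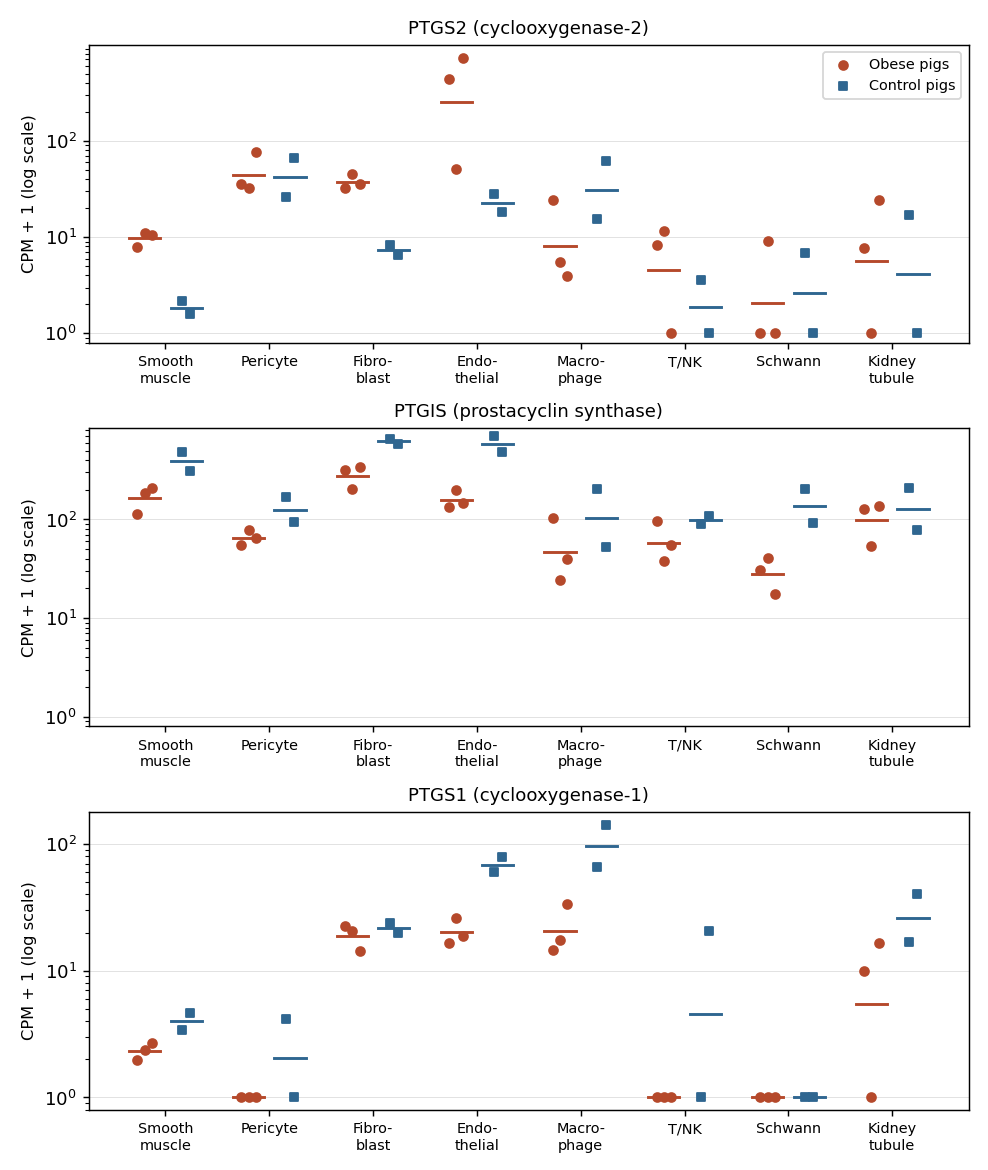
Level of PTGS2, PTGIS and PTGS1 in each pig and class, as CPM + 1 on a log axis, with obese pigs as circles on the left of each class and control pigs as squares on the right. Short lines are means on the log scale of 3 obese or 2 control pigs. PTGS2 was higher in all obese pigs in smooth muscle-like, fibroblast-like and endothelial-like nuclei, and was called there. PTGIS was lower in all obese pigs in endothelial-like, smooth muscle-like, fibroblast-like, pericyte-like and Schwann cell-like nuclei. PTGS1 was lower in all obese pigs in endothelial-like, smooth muscle-like, macrophage-like and kidney tubule-like nuclei. In kidney tubule-like nuclei it was below the count filter and not tested, with 4, 0 and 4 counts in obese pigs, against 2 and 1 in control pigs. PTGIS and PTGS1 were called in endothelial-like nuclei only. In the classes named for PTGIS and PTGS1, 11.2% to 25.1% of all genes tested were lower in all obese pigs.

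PTGS1, the constitutive cyclooxygenase that supplies platelets and resting endothelium, was lower in endothelial-like nuclei of obese pigs, a class in which 2.37% of genes were called lower. The gene lies on the plus strand at chr1:262456106-262482159. It stood at 15.5, 25.1 and 17.7 CPM in obese pigs, against 58.7 and 77.3 CPM in control pigs. The groups did not overlap, and the log2 fold change was -1.72 ± 0.38 (SE), with an adjusted p of 0.0236 in edgeR's quasi-likelihood test. Counts in the obese pigs were 8, 13 and 6, against 149 and 95 in the control pigs, and at this depth the call was lost without any one pig other than obese pig 2 (0.0418 to 0.179). Within the NOS3-led cluster alone, PTGS1 stood at 11.7, 36.2 and 45.1 CPM in obese pigs, against 67.6 and 80.7 CPM in control pigs. That difference did not pass, with a log2 fold change of -1.35 and an adjusted p of 0.312. In the other endothelial-like clusters together the groups overlapped. PTGS1 stood there at 19.2, 23.0 and 4.39 CPM in obese pigs, against 0.0 and 33.6 CPM in control pigs. The counts were 5, 10 and 1 in the obese pigs, against 0 and 3 in the control pigs.

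PTGS1 was not called elsewhere. In macrophage-like nuclei it stood at 13.6, 16.3 and 32.6 CPM in obese pigs, against 64.9 and 139 CPM in control pigs, from 9 and 16 counts in the control pigs, with an adjusted p of 0.124. Among smooth muscle-like nuclei it stood at 0.982, 1.38 and 1.67 CPM in obese pigs, against 2.39 and 3.67 CPM in control pigs, with an adjusted p of 0.274. In fibroblast-like nuclei the groups overlapped, at 21.6, 19.7 and 13.4 CPM in obese pigs and 22.8 and 18.8 CPM in control pigs. Schwann cell-like nuclei held no PTGS1 UMI in any pig.

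PTGIS, which turns the cyclooxygenase product into prostacyclin, was lower in endothelial-like nuclei of obese pigs. It stood at 133, 199 and 145 CPM in obese pigs, against 701 and 487 CPM in control pigs. Every obese pig lay below both control pigs, with a log2 fold change of -1.83 ± 0.30 (SE) and an adjusted p of 0.00858 in edgeR's quasi-likelihood test. At least 1 PTGIS UMI was found in 16.9%, 22.5% and 19.2% of endothelial-like nuclei of obese pigs, against 71.1% and 63.6% in control pigs. With each nucleus thinned to 1000 UMIs, the mean share was 11.6% in obese pigs and 38.0% in control pigs. T or NK cell-like nuclei, taken to lack the gene, held a PTGIS UMI in 16.4%, 8.75% and 12.5% of obese nuclei, against 15.6% and 22.0% of control nuclei, so the shares of obese endothelial-like nuclei stood near this background. The call was lost without control pig 1, at an adjusted p of 0.0613.

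The PTGIS difference in the endothelial-like class moved with the clusters that made it up. In the NOS3-led cluster PTGIS stood at 187, 603 and 289 CPM in obese pigs, against 750 and 513 CPM in control pigs, so that obese pig 2 overlapped the control pigs. The log2 fold change there was -0.75, with an adjusted p of 0.489. In the other endothelial-like clusters PTGIS stood at 80.7, 122 and 74.6 CPM in obese pigs, against 379 and 157 CPM in control pigs, with a log2 fold change of -1.54 and an adjusted p of 0.221.

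PTGIS was also lower in obese pigs in most other cells, without passing the test. In smooth muscle-like nuclei it stood at 113, 185 and 206 CPM in obese pigs, against 484 and 311 CPM in control pigs. The groups did not overlap, and the log2 fold change was -1.28 ± 0.29 (SE) with an adjusted p of 0.0791. It passed at 0.0274 without obese pig 3. In fibroblast-like nuclei PTGIS stood at 315, 203 and 336 CPM in obese pigs, against 658 and 578 CPM in control pigs, with an adjusted p of 0.186. The groups also did not overlap in pericyte-like and Schwann cell-like nuclei. In smooth muscle-like, pericyte-like and Schwann cell-like nuclei, 13.2%, 15.5% and 14.0% of genes tested were lower in all obese pigs. In macrophage-like nuclei they overlapped, at 102, 23.3 and 38.5 CPM in obese pigs and 202 and 52.2 CPM in control pigs. Kidney tubule-like and T or NK cell-like nuclei overlapped too. In all 18 clusters that held at least 20 nuclei of every pig, the pooled PTGIS level was lower in the obese group. How many other genes did so was not counted. In 12 of these 18 clusters every obese pig lay below both control pigs, against 15.8% of all gene-by-cluster values of at least 20 CPM. These clusters come from the same 5 pigs and share any RNA free in the suspension, so they are not independent. Over all nuclei PTGIS stood at 160, 188 and 251 CPM in obese pigs, against 542 and 358 CPM in control pigs (adjusted p = 0.177).

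**Figure D2:**
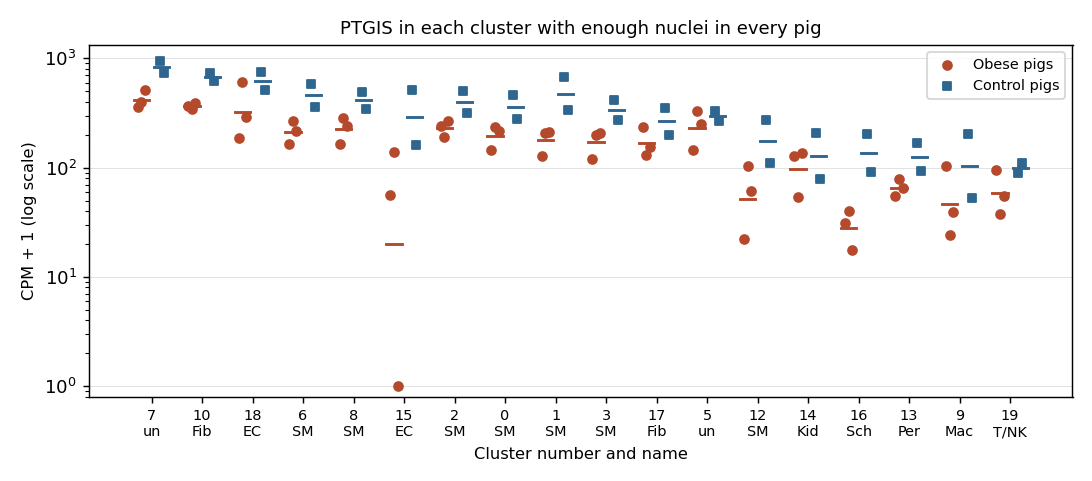
PTGIS level in each pig (CPM + 1, log axis) in the 18 clusters that held at least 20 nuclei of every pig, ordered by the pooled control level, with obese pigs as circles on the left and control pigs as squares on the right. SM is smooth muscle-like, Fib fibroblast-like, EC endothelial-like, Mac macrophage-like, Per pericyte-like, Sch Schwann cell-like, Kid kidney tubule-like, T/NK T or NK cell-like and un unnamed. Lines are means on the log scale, and every obese pig lay below both control pigs in 12 of the clusters.

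TBXAS1, thromboxane synthase, was found mainly in macrophage-like nuclei and was lower there in obese pigs, as were 0.304% of genes tested. The gene lies on the minus strand at chr18:9717291-9886699. It stood at 55.0, 34.8 and 122 CPM in obese pigs, against 1010 and 1358 CPM in control pigs. The groups stood far apart, with a log2 fold change of -4.01 ± 0.56 (SE) and an adjusted p of 0.0263 in edgeR's quasi-likelihood test. At least 1 TBXAS1 UMI was found in 7.58%, 11.2% and 10.0% of nuclei of obese pigs, against 32.7% and 47.2% in control pigs. In smooth muscle-like nuclei TBXAS1 was near the floor in both groups, at 3.60, 1.38 and 2.69 CPM in obese pigs and 2.39 and 2.38 CPM in control pigs.

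The control side of the TBXAS1 difference rested on few nuclei. When macrophage-like nuclei were divided again, a subcluster led by HPGD, SERPINB2, PLVAP and TBXAS1 held 13, 18 and 7 nuclei of obese pigs, against 10 and 15 of control pigs. In it TBXAS1 stood at 1169, 1051 and 1508 CPM in obese pigs, against 1471 and 2391 CPM in control pigs. These nuclei had high CD163 and CSF1R (a scavenger receptor and the receptor for the macrophage growth factor), at 862 and 444 CPM pooled over pigs. F13A1, MRC1 and MSR1, also macrophage markers, were at 16.1, 5.35 and 5.35 CPM. Of the mast cell markers, KIT stood at 160 CPM, while MS4A2, HDC and GATA2 were at 0. As a share of the macrophage-like class the subcluster was small in obese pigs and large in control pigs. The rest of the class was uneven too. The subcluster led by SLC9B2 and RSAD2 held 17, 645 and 9 nuclei of obese pigs, against 1 and 0 of control pigs. That led by PDE10A and TGM2 held 173, 21 and 14, against 6 and 4.

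Without the HPGD-led subcluster, TBXAS1 stood at 28.5, 29.1 and 31.6 CPM in obese pigs, against 779 and 469 CPM in control pigs. The log2 fold change was -4.34, with an adjusted p of 0.0135. The counts were 37, 186 and 10 from 23 of 396, 140 of 1366 and 7 of 133 nuclei of obese pigs, against 72 and 29 counts from 9 of 45 and 3 of 21 nuclei of control pigs. Of those control counts, 35 lay in 1 nucleus of control pig 1 and 25 in 1 nucleus of control pig 2. The call on the whole class was lost without control pig 1 (0.278), control pig 2 (0.295) or obese pig 3 (0.123).

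HPGD, which inactivates prostaglandin E2, followed TBXAS1 in macrophage-like nuclei without being called. It stood at 31.6, 13.2 and 148 CPM in obese pigs, against 296 and 600 CPM in control pigs. The groups did not overlap, and 17.8% of genes tested in the class were likewise lower in all obese pigs. The adjusted p was 0.2 in edgeR's quasi-likelihood test. In the HPGD-led subcluster it stood at 974, 1161 and 1849 CPM in obese pigs, against 562 and 1148 CPM in control pigs. Outside the subcluster it stood at 9.25, 6.73 and 37.9 CPM in obese pigs, against 162 and 130 CPM in control pigs, from 15 and 8 control counts. In fibroblast-like nuclei HPGD stood at 17.7, 13.1 and 14.4 CPM in obese pigs, against 30.2 and 28.8 CPM in control pigs (adjusted p = 0.334). In Schwann cell-like nuclei it overlapped, at 53.7, 93.3 and 24.9 CPM in obese pigs and 69.3 and 51.6 CPM in control pigs, as it did in pericyte-like nuclei, at 3.18, 64.4 and 16.9 CPM in obese pigs and 35.0 and 0.0 CPM in control pigs.

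**Figure D3:**
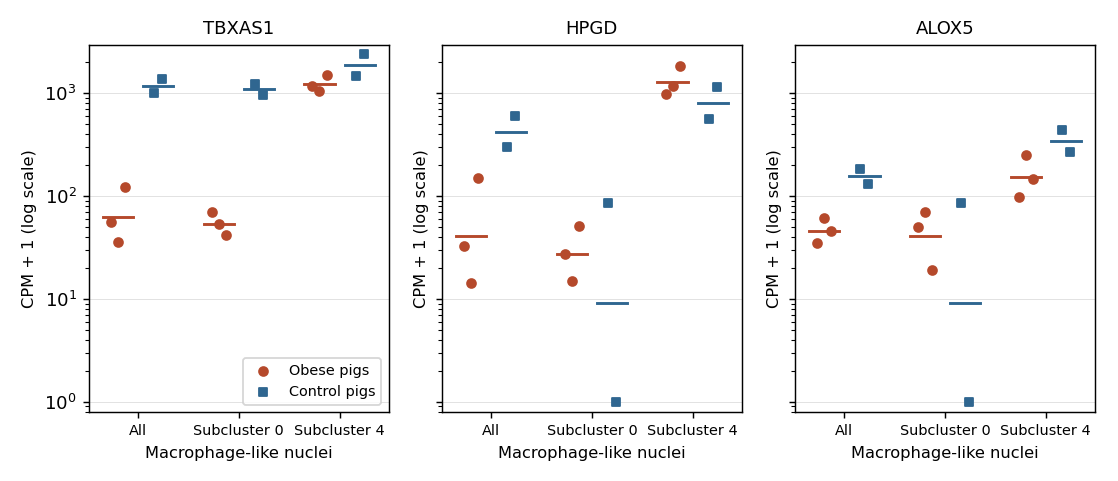
TBXAS1, HPGD and ALOX5 in each pig (CPM + 1, log axis) in all macrophage-like nuclei and in subclusters 0 and 4 of them, with obese pigs as circles on the left and control pigs as squares on the right, and lines at the means on the log scale. Subcluster 4 is the one led by HPGD and TBXAS1, and subcluster 0 is the largest. TBXAS1 was high in every pig in subcluster 4, and in subcluster 0 it was at 68.5, 51.8 and 40.9 CPM in obese pigs, against 1235 and 958 CPM in control pigs. Those control values came from 59 counts in 4 of 35 nuclei and 28 counts in 2 of 12 nuclei. Of these counts, 35 lay in 1 nucleus of control pig 1 and 25 in 1 nucleus of control pig 2.

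ALOX5, the 5-lipoxygenase that starts leukotriene synthesis, was highest in macrophage-like nuclei, with at most 35.1 CPM in any pig of the 7 other tested classes. In macrophage-like nuclei it stood at 33.9, 59.7 and 44.5 CPM in obese pigs, against 180 and 131 CPM in control pigs, from 25 and 15 control counts. The groups did not overlap, and 17.8% of genes tested in the class were likewise lower in all obese pigs. The difference did not pass edgeR's quasi-likelihood test, with a log2 fold change of -1.61 ± 0.42 (SE) and an adjusted p of 0.123. Without the HPGD-led subcluster the direction turned, to a log2 fold change of 0.28 with an adjusted p of 0.935. Over all nuclei ALOX5 stood at 3.25, 12.7 and 0.906 CPM in obese pigs, against 0.843 and 1.28 CPM in control pigs, and obese pig 2 also held the most macrophage-like nuclei.

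ALOX5AP, the protein that presents arachidonic acid to 5-lipoxygenase, was low in every class. In macrophage-like nuclei it stood at 12.0, 18.8 and 5.93 CPM in obese pigs, against 7.21 and 0.0 CPM in control pigs, and fell below the count filter. Smooth muscle-like nuclei held it at 6.55, 3.39 and 7.805 CPM in obese pigs, against 10.1 and 11.0 CPM in control pigs. The log2 fold change there was -0.85 ± 0.39 (SE), with an adjusted p of 0.356.

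PTGES, the inducible prostaglandin E2 synthase, was barely detected. It reached at most 11.8 CPM in any pig and tested class, and in smooth muscle-like nuclei it stood at 0.218, 1.00 and 0.929 CPM in obese pigs, against 0.691 and 0.288 CPM in control pigs (adjusted p = 0.833). At 2 to 22 counts per pig, a difference in this gene was not detectable.

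Of the receptors, PTGER4, which raises cyclic AMP in response to prostaglandin E2, varied widely between pigs. In T or NK cell-like nuclei it stood at 43.9, 52.8 and 26.8 CPM in obese pigs, against 31.4 and 167 CPM in control pigs. In endothelial-like nuclei it stood at 15.5, 27.01 and 44.3 CPM in obese pigs, against 12.6 and 39.0 CPM in control pigs, with an adjusted p of 0.842. In pericyte-like nuclei, below the count filter, it stood at 31.8, 31.1 and 21.2 CPM in obese pigs, against 6.35 and 13.2 CPM in control pigs, from 10, 14 and 5 counts against 2 and 2. Of these 3 classes, the pericyte-like class was the one in which the groups did not overlap. In that class 12.8% of genes tested were higher in all obese pigs.

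PTGER4 in smooth muscle-like nuclei stood at 3.60, 7.28 and 1.11 CPM in obese pigs, against 1.32 and 0.360 CPM in control pigs, with a log2 fold change of 2.06 ± 0.74 (SE) and an adjusted p of 0.23. PTGFR, the receptor for prostaglandin F2-alpha, was found in fibroblast-like nuclei, at 14.7, 20.2 and 4.12 CPM in obese pigs and 18.4 and 11.07 CPM in control pigs (adjusted p = 0.931). In fibroblast-like cluster 17 it stood at 38.8, 41.0 and 10.9 CPM in obese pigs, against 59.3 and 87.4 CPM in control pigs, from 10, 32 and 1 counts against 18 and 7.

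In all, 8 of the 10 genes passed the count filter in smooth muscle-like nuclei and 1 was called, against 0.709% of 15801 genes tested, of which 0.108% were called lower. In fibroblast-like nuclei 5 passed and 1 was called, against 0.519% of 9063, with 0.0662% called lower. In endothelial-like nuclei 4 passed and 3 were called, against 8.34% of 6546. In macrophage-like nuclei 5 passed and 1 was called, against 1.0% of 5590, with 0.698% called higher. All 10 passed over all nuclei and none was called by edgeR, against 0.00499% of 20052, with 2825 genes at an unadjusted p under 0.05 and 796 called by DESeq2. Between 1 and 3 of the genes passed in the pericyte-like, Schwann cell-like, T or NK cell-like and kidney tubule-like classes, where 0.0% of genes were called, with 319 to 521 genes at an unadjusted p under 0.05.

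**Figure D4:**
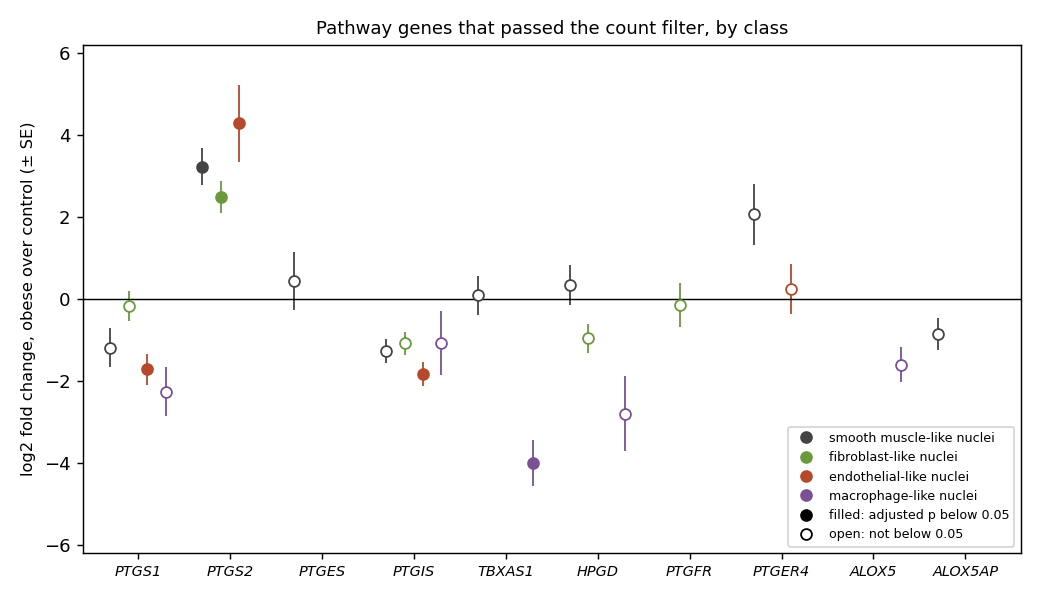
Log2 fold change of obese over control pigs, with its standard error, for each of the 10 genes in the 4 largest tested classes of vessel wall nuclei, where the gene passed the count filter. Filled points passed an adjusted p of 0.05 in edgeR's quasi-likelihood test. Calls were 3 higher, all PTGS2, and 3 lower: PTGIS and PTGS1 in endothelial-like and TBXAS1 in macrophage-like nuclei.

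Whether a change differed between classes was tested over the 4 main classes in 6 pairs. Outside macrophage-like nuclei TBXAS1 did not fall in these classes, and it lay near the floor. Its mean in smooth muscle-like, fibroblast-like and endothelial-like nuclei was 2.56, 3.71 and 4.2 CPM in obese pigs. In control pigs it was 2.38, 0.962 and 2.4 CPM. The change of TBXAS1 was more negative in macrophage-like nuclei than in each of the other 3 classes. The log2 difference was -3.92 ± 0.48 (SE) against smooth muscle-like nuclei (adjusted p = 0.000765), -5.88 ± 0.83 against fibroblast-like nuclei (0.00263) and -4.78 ± 0.93 against endothelial-like nuclei (0.00938). In the 3 pairs, 1.84%, 1.22% and 2.7% of 12419 genes were called. HPGD differed between macrophage-like and endothelial-like nuclei, by -5.93 ± 1.31 (SE, adjusted p = 0.0205), where it stood at 0.0, 27.01 and 8.86 CPM in endothelial-like nuclei of obese pigs, against 0.788 and 3.25 CPM in those of control pigs. The HPGD call was lost without control pig 1 (0.176), control pig 2 (0.138) or obese pig 2 (0.273). PTGES did not pass the count filter of this test, and none of the other 7 genes was called in any pair. Of these 7, PTGS2 came closest, at -5.45 ± 1.63 (SE) for macrophage-like minus endothelial-like nuclei, with an adjusted p of 0.0798. HPGD lay closer for macrophage-like minus smooth muscle-like nuclei, at -3.30 ± 0.85 (SE, adjusted p = 0.0595 in the same interaction test). That HPGD difference passed under 2 of 6 alternatives that kept every pig. Without control pig 2, none of the 3 TBXAS1 differences passed (0.0504 to 0.087). Without control pig 1 the differences against fibroblast-like (0.102) and endothelial-like nuclei (0.077) were lost, and without obese pig 1 that against endothelial-like nuclei (0.129).

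Of 39 further genes of the pathway, 36 were in the files. In endothelial-like nuclei 4 of the 11 tested rose, against 5.97% of all genes, and none fell, with a median log2 fold change of 0.57, against -0.03 over all genes tested. In smooth muscle-like nuclei 1 of 22 rose, against 0.601% of all genes, with a median of 0.09 against 0.01. None of 14 passed in fibroblast-like and none of 8 in macrophage-like nuclei, with medians of 0.33 and -0.14 against 0.0 and 0.1.

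CYSLTR2, a receptor for cysteinyl leukotrienes, was the one called in smooth muscle-like nuclei. It stood at 51.3, 36.3 and 25.7 CPM in obese pigs, against 2.57 and 1.87 CPM in control pigs, with a log2 fold change of 4.01 ± 0.38 (SE) and an adjusted p of 0.00343. Smooth muscle-like cluster 12, of which CYSLTR2 is itself a leading gene, held 396 of 470, 241 of 289 and 263 of 277 of its counts in the obese pigs, against 49 of 82 and 14 of 26 in the control pigs. The cluster held 331, 270 and 158 nuclei of obese pigs, against 248 and 56 of control pigs. Within that cluster it stood at 290.0, 174 and 352 CPM in obese pigs, against 39.5 and 45.4 CPM in control pigs. The call was lost without control pig 1, at 0.0945, and without doublet removal, at 0.0618.

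In endothelial-like nuclei CYSLTR2 stood at 29.0, 40.5 and 79.7 CPM in obese pigs, against 12.2 and 4.88 CPM in control pigs, with a log2 fold change of 2.50 ± 0.60 (SE) and an adjusted p of 0.0336. There the gene lay in cluster 24, at 65.3, 68.4 and 153 CPM in obese pigs, against 118 and 69.2 CPM in control pigs, so within that cluster the groups overlapped. The fold change without the NOS3-led cluster was -0.09 on the log2 scale, and the call was also lost without control pig 2 (0.158) or obese pig 3 (0.0766).

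ANXA1, annexin A1, a protein known for restraining phospholipase A2 and for a pro-resolving role, stood at 369, 303 and 375 CPM in endothelial-like nuclei of obese pigs, against 90.2 and 53.7 CPM in those of control pigs. The log2 fold change was 2.35 ± 0.35 (SE), with an adjusted p of 0.00631. It was higher within the NOS3-led cluster too, at 603, 880.0 and 433 CPM in obese pigs, against 73.5 and 55.3 CPM in control pigs. In endothelial-like cluster 24 the groups overlapped, at 114, 202 and 384 CPM in obese pigs and 275 and 34.6 CPM in control pigs. The call was lost without control pig 2, at 0.0614, and without the NOS3-led cluster, at a log2 fold change of 0.82 with an adjusted p of 0.666.

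SLCO2A1, the transporter that takes up prostaglandins, stood at 385, 260 and 434 CPM in endothelial-like nuclei of obese pigs, against 87.9 and 138 CPM in those of control pigs, with a log2 fold change of 1.77 ± 0.38 (SE) and an adjusted p of 0.0221. In the NOS3-led cluster the groups overlapped, at 156, 12.1 and 433 CPM in obese pigs and 58.5 and 129 CPM in control pigs. The call was lost without any one of the pigs other than obese pig 2 (0.051 to 0.198) and without the NOS3-led cluster (0.514).

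PTGER3, a prostaglandin E2 receptor that lowers cyclic AMP, stood at 114, 218 and 70.9 CPM in endothelial-like nuclei of obese pigs, against 48.1 and 39.9 CPM in those of control pigs, with a log2 fold change of 1.66 ± 0.42 (SE) and an adjusted p of 0.0391. Its level in smooth muscle-like nuclei was 909, 984 and 830.0 CPM in obese pigs, against 518 and 502 CPM in control pigs. That difference did not pass, at an adjusted p of 0.111. In the NOS3-led cluster the groups overlapped, at 31.1, 253 and 27.1 CPM in obese pigs and 46.7 and 37.7 CPM in control pigs (adjusted p = 0.509). The endothelial-like call was lost without any one pig other than obese pig 3 (0.0647 to 0.23), without doublet removal (0.0773), with every listed barcode kept (0.0684) and without the NOS3-led cluster (0.304).

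PLA2G4A, the phospholipase that releases arachidonic acid, is annotated by RefSeq on the strand opposite to PTGS2 and overlaps it. Whether the counting used strand is not given in the sources used here. PLA2G4A stood at 261, 94.5 and 204 CPM in endothelial-like nuclei of obese pigs, against 292 and 364 CPM in those of control pigs, and the smooth muscle-like values were 40.9, 59.3 and 55.8 CPM in obese pigs, against 82.5 and 47.5 CPM in control pigs. It was not higher in the obese pigs in either class (adjusted p = 0.3 and 0.577). PTGIR, the prostacyclin receptor, did not exceed 2.06 CPM in any pig of the 4 main classes.

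Over the 40 sums of 8 classes by 5 pigs, the genes whose log2(CPM + 1) ran most like each member were searched among 6020 genes. The sums share pigs and depths, so these correlations are descriptions. TBXAS1 ran with CYTH4, CD86 and GPR183 (Pearson's r of 0.78, 0.755 and 0.747), and ALOX5 with KMO, SPI1 and FGD2 (0.847, 0.833 and 0.831). PTGS2 ran with SYBU, PCF11 and ARHGAP28 (0.787, 0.777 and 0.713), and PTGIS with ITGA9, CCDC149 and DPYSL3 (0.812, 0.772 and 0.772). PTGS1 ran with NEBL (0.776), HPGD with PLEKHA5 (0.783), PTGFR with POSTN (0.741), PTGER4 with ACSL5 (0.808), PTGES with MEOX2 (0.749) and ALOX5AP with COQ4 (0.578).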

How the data were processed

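The deposited files hold raw UMI counts per gene and nucleus, which the authors made with Cell Ranger, version 5.0 per the submitters' processing notes and 7.1.0 per the file headers. The build is named Sscrofa11 there; Seurat 5.0 is named for steps not used here. Gene symbols came from the files for 17508 features and from a table for 223 more.

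Of 45580 barcodes, 77 were removed for fewer than 300 genes or more than 5% mitochondrial UMIs. Scrublet's automatic threshold marked 2 doublets, so the top scorers at 0.8% per 1000 barcodes (3517) were removed. In scanpy 1.11.5, 3000 variable genes, 30 components and 20 neighbours were clustered with leidenalg 0.10.2 at resolution 1.0. Clusters with markers of 2 classes were divided again at 0.3. A name needed 3 markers, a mean marker position of 0.4 between the 25th percentile of clusters and the highest on a log2(CPM + 5) scale, and a margin of 0.1 over another class. These thresholds were set after the marker values were seen. Of 27 clusters, 5 stayed unnamed.

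Counts were summed per pig and class where every pig had 20 nuclei, filtered with filterByExpr, scaled by TMM and tested in edgeR 4.0.16 on 3 residual degrees of freedom. DESeq2 1.42.0 and limma 3.58.1 were alternatives. The steps were tested on simulated data. Intervals on shares of nuclei are exact (Clopper-Pearson), at 95%.

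The 10 genes, the other lists and the named classes were chosen with earlier results of these data known. Values per pig were given mainly for genes called or at 20 CPM or more in a class, though not in every such class. Of the other pathway genes, those called and the 2 of highest level per class were eligible to be named, and 3 genes of highest correlation per member. PTGES3, MGLL and ACSL4, eligible by level, were not called. PLA2G4A also stands in the text for its overlap with PTGS2, and PTGIR was added after its values were seen. Replicate numbers did not pair pigs.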

Additional observations from a re-analysis of the deposited data

Results flagged for a closer look

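TBXAS1 was flagged because its change under the diet differed between classes in edgeR's interaction test. The log2 difference of the change was -3.92 for macrophage-like minus smooth muscle-like, -5.88 for macrophage-like minus fibroblast-like and -4.78 for macrophage-like minus endothelial-like nuclei. In the last 3 classes TBXAS1 did not exceed 7.73 CPM in any pig. HPGD was flagged on the same ground, at -5.93 for macrophage-like minus endothelial-like nuclei, with 0 to 14 counts per pig in the endothelial-like class.

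PTGS2 was flagged in data outside the tested classes. In unnamed cluster 7, led by TRPC4, CDH18 and ALDH1A2, it stood at 52.9, 24.2 and 92.1 CPM in obese pigs 1, 2 and 3, against 19.8 and 0.0 CPM in control pigs 1 and 2. The pooled level in the obese pigs was 55.6 CPM. This cluster held 612, 590 and 500 nuclei of obese pigs, against 565 and 179 of control pigs. With groups of 3 and 2 pigs, single pigs were not tested as outliers.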

How the results depend on the processing

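Precision is limited by 5 pigs, by few nuclei of some classes in the control group and by shallow nuclei of the obese group. The 6 calls on members kept their direction under every alternative in which the gene was tested. PTGS1 was not tested in the endothelial-like class without the NOS3-led cluster. There its pooled level was 17.3 CPM in obese and 7.11 CPM in control pigs, and the groups overlapped. PTGS2, PTGS1 and PTGIS in endothelial-like nuclei were not called within the NOS3-led cluster alone, and TBXAS1 and fibroblast-like PTGS2 were not called by limma-voom (0.0554 and 0.0597). PTGS2 in endothelial-like nuclei was not called by limma-voom (0.0747) or without doublet removal (0.058). Counts of called genes over all genes, which are 112 in smooth muscle-like, 47 in fibroblast-like, 546 in endothelial-like and 56 in macrophage-like nuclei, 1 over all nuclei and 853 summed over the 6 interaction pairs, moved as follows, and the cause was not tested. DESeq2 called 634, 132, 251 and 796 genes in smooth muscle-like, fibroblast-like, macrophage-like and all nuclei. With no filter on low counts there were 958, 384, 1080, 456 and 559, and 2394 for the interaction. A resolution of 0.5 gave 36, 27 and 126 in smooth muscle-like, fibroblast-like and macrophage-like nuclei and 1404 for the interaction. With every listed barcode kept, the smooth muscle-like, fibroblast-like and all-nuclei counts were 44, 25 and 0. The smooth muscle-like count was 33 without doublet removal, 38 with pathway and immediate early genes left out of clustering, and 44 with unnamed mural clusters added, a setting chosen after seeing the data. Chosen likewise, the NOS3-led cluster alone gave 33 genes, the endothelial-like class without it 0, and the macrophage-like class without the HPGD-led subcluster 17. Limma-voom called 0 genes in macrophage-like nuclei. Leaving out 1 pig at a time gave 2 to 348 smooth muscle-like, 0 to 135 fibroblast-like, 147 to 518 endothelial-like, 0 to 154 macrophage-like, 0 to 355 all-nuclei and 79 to 1253 interaction calls. Replicate numbers do not pair pigs here: with the replicate number as a block the counts were 286, 26, 411, 0 and 372 in smooth muscle-like, fibroblast-like, endothelial-like, macrophage-like and all nuclei, and same-numbered pigs had deviations correlated at -0.11 to 0.07. With the block TBXAS1 in macrophage-like (0.131) and PTGS2 in fibroblast-like nuclei (0.0845), and of the further genes CYSLTR2 (0.069) and SLCO2A1 (0.0532) in endothelial-like nuclei, were not called. Some uncalled members passed under alternatives that kept every pig. PTGS2 and PTGIS over all nuclei each passed under 3 of 7. PTGIS passed under 2 of 10 in smooth muscle-like and 1 of 9 in fibroblast-like nuclei. HPGD passed under 2 of 10 and PTGS1 under 1 of 9 in macrophage-like nuclei, and PTGER4 under 1 of 10 in smooth muscle-like nuclei. Some uncalled differences between classes also passed. Uncalled members changed sign under some settings, on the log2 scale and at no adjusted p under 0.05. PTGES in smooth muscle-like nuclei (0.43) was -0.41 at resolution 0.5, -0.05 with every barcode, -0.41 with the lists left out of clustering and -0.30 with mural clusters added. TBXAS1 there (0.08) was -0.06 at resolution 0.5, -0.07 without doublet removal, 0.0 with limma-voom, -0.10 with the block and -0.11 with mural clusters added, and HPGD there (0.34) was -0.18 with the block. With the block PTGFR in fibroblast-like nuclei (-0.16) was 0.22 and PTGER4 in endothelial-like nuclei (0.24) was -0.16, and ALOX5 in macrophage-like nuclei was 0.28 without the HPGD-led subcluster. Leaving out 1 pig gave -0.24 to 0.39 for TBXAS1 and -0.21 to 0.80 for HPGD in smooth muscle-like nuclei, -0.62 to 0.23 for PTGFR, -0.42 to 1.22 for PTGER4 and -2.04 to 0.34 for PTGIS in macrophage-like nuclei. Thinning each nucleus to 1000 UMIs changed the obese minus control share of endothelial-like nuclei with a UMI to -26.4 percentage points for PTGIS, against -47.8 unthinned, and to -4.51 for PTGS1, against -19.6.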

Other observations

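In lymphatic endothelial-like nuclei, which numbered under 20 in obese pig 3 and control pig 2 and were not tested, obese pig 2 held 205 PTGS2 counts in 66 nuclei, a level of 672 CPM. The other pigs stood at 68.2 and 0.0 CPM in obese pigs 1 and 3, against 72.4 and 0.0 CPM in control pigs 1 and 2. In unnamed cluster 5, led by ANKRD1, FLNC and INHBA, PTGS2 stood at 11.7, 10.6 and 41.8 CPM in obese pigs, against 40.2 and 0.0 CPM in control pigs, and obese pig 3 held 398 of the counts there. TBXAS1 outside macrophage-like nuclei was at 80.4, 26.4 and 121 CPM in T or NK cell-like nuclei of obese pigs, against 21.0 and 0.0 CPM in those of control pigs, from 11, 5 and 9 counts against 8 and 0, with an adjusted p of 0.538 in edgeR's quasi-likelihood test. In kidney tubule-like nuclei it stood at 78.4, 35.1 and 50.0 CPM in obese pigs, against 7.91 and 0.0 CPM in control pigs, and was below the count filter.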
